A study of Mus musculus with 6 samples.

Results

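The genes described here are the 53 measured components of the Wnt signalling pathway, out of 17720 genes measured on the arrays. They were chosen by name: every measured Wnt, Fzd, Sfrp, Dkk and Rspo gene with its number, Ccn4, Ccn5 and Ccn6, and Wif1, Frzb, Lrp5, Lrp6, Lgr4, Lgr5, Lgr6, Axin2, Tcf7l1, Tcf7l2, Lef1 and Ctnnb1. By role they are 16 ligands, 10 secreted inhibitors, 15 receptors and coreceptors, 4 R-spondins, 3 Ccn genes and 5 intracellular genes. Wnt2, Wnt3, Wnt10a and Tcf7 meet the same rule and were not analysed here.

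The study compared 3 kinds of sorted mouse fat cells, with 2 arrays for each. Marrow-derived adipocytes came from the floating fat-cell fraction of gonadal fat in mice given a bone marrow transplant, and were sorted by a marker of the donor marrow, which was GFP for replicate 1 and LacZ (beta-galactosidase) for replicate 2. White adipocytes were isolated from gonadal fat, and brown adipocytes from a depot that the labels call intrascapular. Each sample pooled RNA of at least 6 sorts of about 5000 cells, and the RNA was amplified before labelling. All tissue had been digested with collagenase at 2 mg/ml for 1 hour. The labels used here give no strain, sex, age or diet, and no genotype beyond the donor's marker. They call the samples biological replicates without saying that they came from separate animals, so the p-values measure only the spread between these arrays, which may be partly technical.

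Wnt proteins are secreted ligands that bind Frizzled receptors together with the coreceptors Lrp5 and Lrp6. In the canonical branch this stabilises beta-catenin (Ctnnb1), which enters the nucleus and acts with the TCF/LEF factors on target genes such as Axin2, itself a negative feedback regulator. Sfrp, Dkk, Wif1 and Frzb proteins are secreted antagonists, while R-spondins act through Lgr4, Lgr5 and Lgr6 to keep Frizzled receptors at the cell surface. In fat, canonical Wnt signalling is known for holding precursors back from becoming adipocytes.

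Values are the deposited log2 expression values of the probe set with the highest mean for each gene, and differences are log2 differences between group means, followed by ± limma's standard error (SE, n = 2 arrays per group). A gene is called here when limma's Benjamini-Hochberg adjusted p over all 17720 genes lies under 0.05. In all, 16 of the 53 genes were called in at least 1 of the 3 comparisons, against 34.1% of all genes, and 37 were called in none. The comparisons share groups with each other, so a gene that stands apart in 1 group can be called in more than 1 of them. In bulk samples fewer cells of a type and less RNA per cell cannot be told apart. Values under about 5 lie toward the lower end of the arrays, where log2 differences understate true folds. Of the 53 genes 25 had a mean under 5, or 47.2%, against 32.2% of all genes.

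The 16 called genes fell into a few patterns over the groups. Wnt5a, Lgr4 and Axin2 were lower in marrow-derived adipocytes than in either other group, and Dkk3, Sfrp2 and Tcf7l1 were higher there than in either. White adipocytes had the highest values of Wnt5b, Sfrp5, Fzd2, Fzd5 and Ccn5 and the lowest of Fzd6, each called against both other groups. Brown adipocytes had higher Lgr6 and Rspo4 than both others. Sfrp1 and Fzd3 were called in 1 comparison each.

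**Figure D1:**
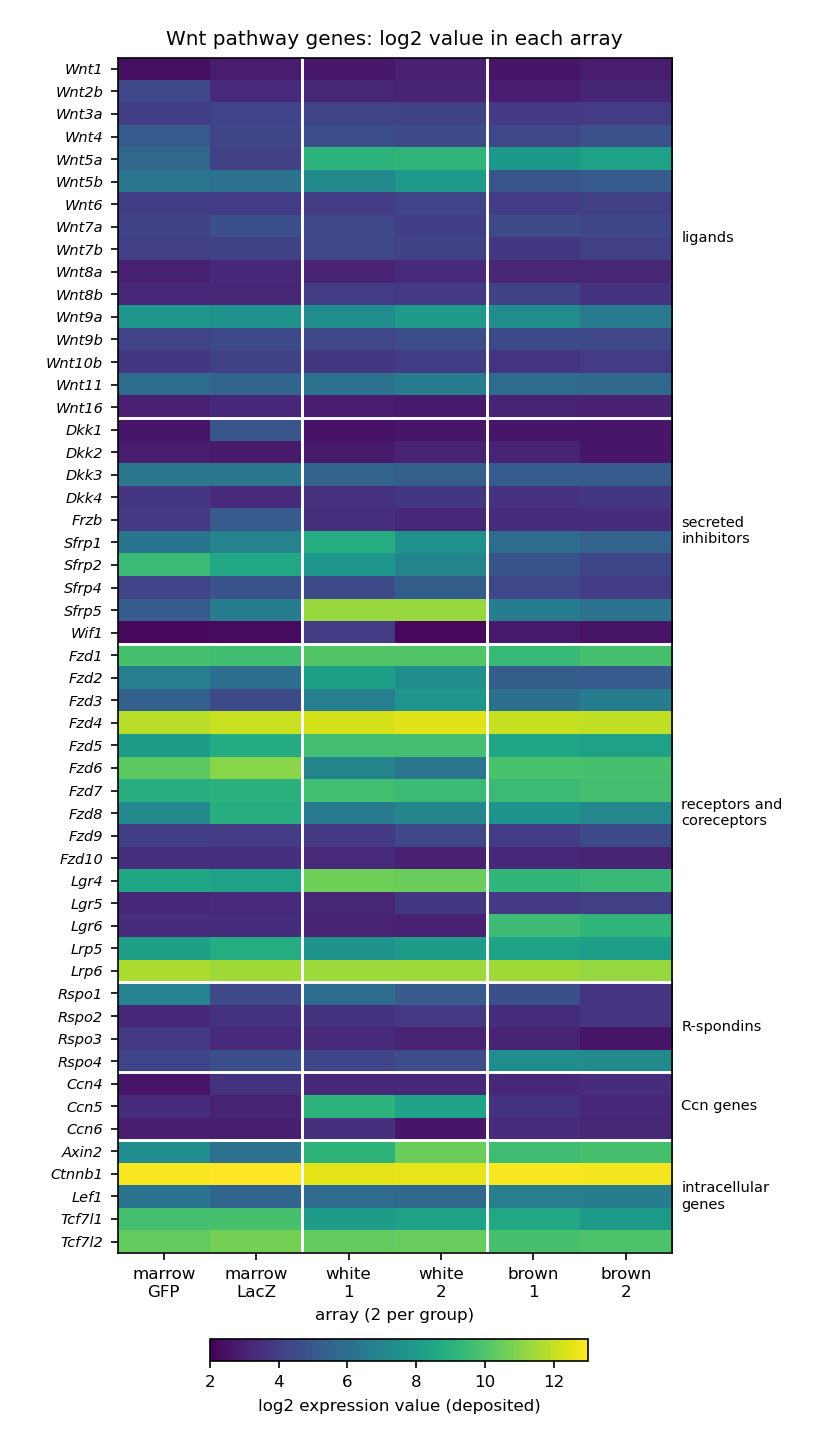
Deposited log2 value of each of the 53 genes (rows, grouped by role) in each of the 6 arrays (columns); the colour scale runs from 2 (dark) to 13 (yellow). Most ligands are dark in all arrays, while Lgr6 stands out only in the brown arrays, at 9.55 and 9.19, and Ccn5 only in the white arrays, at 9.09 and 8.35.

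Promoter sequence was taken from RefSeq (GRCm38.p6) for 35 of the 53 genes, of which 9 were among the 16 called, and the 250 bases before each annotated start were searched on both strands. The 6 windows printed are of called genes and stand for the patterns of marrow-derived, white and brown adipocytes: Axin2 was low and Tcf7l1 high in marrow-derived adipocytes, Sfrp5 and Wnt5b were highest in white, and Lgr6 and Rspo4 in brown. They lie at chr11:108920099-108920348 (plus strand) for Axin2, chr6:72789046-72789295 (minus) for Tcf7l1, chr19:42202253-42202502 (minus) for Sfrp5, chr6:119449387-119449636 (minus, 1 of 3 annotated starts) for Wnt5b, chr1:135105277-135105526 (minus) for Lgr6 and chr2:151842677-151842926 (plus) for Rspo4. Sequences run 5′ to 3′ along the gene's strand, and capitals mark matches to the GC box (GGGCGG or its reverse complement) or, in Wnt5b, also to the TCF/LEF core.
Axin2: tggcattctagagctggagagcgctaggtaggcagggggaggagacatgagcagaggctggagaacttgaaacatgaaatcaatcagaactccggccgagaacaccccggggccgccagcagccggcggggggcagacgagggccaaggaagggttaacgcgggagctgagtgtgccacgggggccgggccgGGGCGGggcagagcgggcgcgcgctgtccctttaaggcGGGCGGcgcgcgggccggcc
Tcf7l1: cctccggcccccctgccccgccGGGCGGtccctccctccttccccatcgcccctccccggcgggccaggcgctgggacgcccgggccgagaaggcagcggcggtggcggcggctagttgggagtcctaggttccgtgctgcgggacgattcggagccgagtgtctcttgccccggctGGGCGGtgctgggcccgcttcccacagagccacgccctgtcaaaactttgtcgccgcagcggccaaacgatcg
Sfrp5: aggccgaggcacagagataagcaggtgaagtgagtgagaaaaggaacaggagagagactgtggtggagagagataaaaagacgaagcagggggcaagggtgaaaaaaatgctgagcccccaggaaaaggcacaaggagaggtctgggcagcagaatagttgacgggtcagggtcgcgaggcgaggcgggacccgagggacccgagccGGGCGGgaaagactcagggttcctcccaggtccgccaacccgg
Wnt5b: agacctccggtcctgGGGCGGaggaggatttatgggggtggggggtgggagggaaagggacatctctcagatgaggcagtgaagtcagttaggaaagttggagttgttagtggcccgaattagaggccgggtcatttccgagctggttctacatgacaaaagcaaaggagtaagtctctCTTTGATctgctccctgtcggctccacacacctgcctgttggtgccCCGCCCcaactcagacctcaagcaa
Lgr6: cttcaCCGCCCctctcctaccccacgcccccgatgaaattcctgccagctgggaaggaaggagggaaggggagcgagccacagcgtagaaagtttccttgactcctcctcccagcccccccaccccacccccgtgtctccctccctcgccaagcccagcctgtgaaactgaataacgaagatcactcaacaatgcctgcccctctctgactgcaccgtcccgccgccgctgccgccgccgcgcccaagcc
Rspo4: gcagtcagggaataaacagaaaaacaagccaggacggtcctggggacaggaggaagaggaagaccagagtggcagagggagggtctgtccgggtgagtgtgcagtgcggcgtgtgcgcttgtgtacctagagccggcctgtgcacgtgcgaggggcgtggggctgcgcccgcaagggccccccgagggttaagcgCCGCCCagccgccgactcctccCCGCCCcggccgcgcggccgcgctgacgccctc
The TCF/LEF core ATCAAAG was found in 2 of 43 windows of these genes, in Wnt11 and in the Wnt5b window printed, against 3.21% of 32851 windows of all genes. No other window of Wnt5b or Wnt11 held this core. It was not in the printed Axin2 window, which says only that these letters are not in those 250 bases. GC boxes were in 30 of the 43 windows (69.8%), against 32.7% of all windows, and the TATA box TATAAA in 8 (18.6%), against 12.4%. All 6 printed windows held a GC box. Of the called genes whose windows are not printed, Lgr4 and Sfrp2 had none and Fzd5 had 9 matches. The windows of these genes held a median of 21 CG dinucleotides, against 6 over all windows, and the Axin2 and Rspo4 windows held 24 each. The printed Wnt5b window held 7, and the windows of its other starts held 4 and 35. None of these 3 motifs contains another, and a match is a description of the sequence only.

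Against white adipocytes, marrow-derived adipocytes had lower Wnt5a, Sfrp5, Ccn5 and Lgr4 and higher Fzd6. In this comparison 4 of the 53 genes were called higher, against 12.2% of all genes, and 9 lower, against 13.6%. The share called either way was 24.5%, close to the 25.8% of all genes, and the median log2 difference was -0.11, against -0.07 over all genes. Leaving out each of the 6 arrays in turn kept 5 of the 13 calls throughout, those of Wnt5a, Sfrp5, Fzd6, Lgr4 and Ccn5. Without white replicate 2 the higher count was 1, where 899 of all genes were called higher, and without either brown array the lower count was 4, where 1372 of all genes were called lower.

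Against brown adipocytes, marrow-derived adipocytes had far lower Lgr6, lower Rspo4, Wnt5a and Axin2, and higher Sfrp2. Here 4 of the 53 genes were called higher, against 8.71% of all genes, and 5 lower, against 11.7%. The share called either way was 17.0%, against 20.4% of all genes, and the median log2 difference was 0.04, against 0.02 over all genes. Only the calls of Lgr6 and Rspo4 held with each of the 6 arrays left out in turn. Without brown replicate 1 the counts were 2 higher and 2 lower, where 121 and 355 of all genes were called, and without brown replicate 2 they were 0 and 2, where limma called 300 of all genes either way and 5 of the 53 were higher at an unadjusted p under 0.05.

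White adipocytes had higher Ccn5, Sfrp5, Sfrp2, Fzd2, Wnt5b and Sfrp1 than brown adipocytes and lower Lgr6, Fzd6 and Rspo4. In this comparison 8 of the 53 genes were called higher in white, against 3.87% of all genes, and 3 lower, against 5.34%. The share called either way was 20.8%, against 9.21% of all genes, and the median log2 difference was 0.10, against 0.02. These counts rest on both brown arrays: without either of them limma called 0 higher and 1, Lgr6, lower, and 5 to 7 of all 17720 genes. At an unadjusted p under 0.05, 9 were higher without brown replicate 1 and 8 without brown replicate 2. Without white replicate 1 the counts were 3 higher and 3 lower, where 321 and 516 of all genes were called, against 686 and 946 with all arrays.

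**Figure D2:**
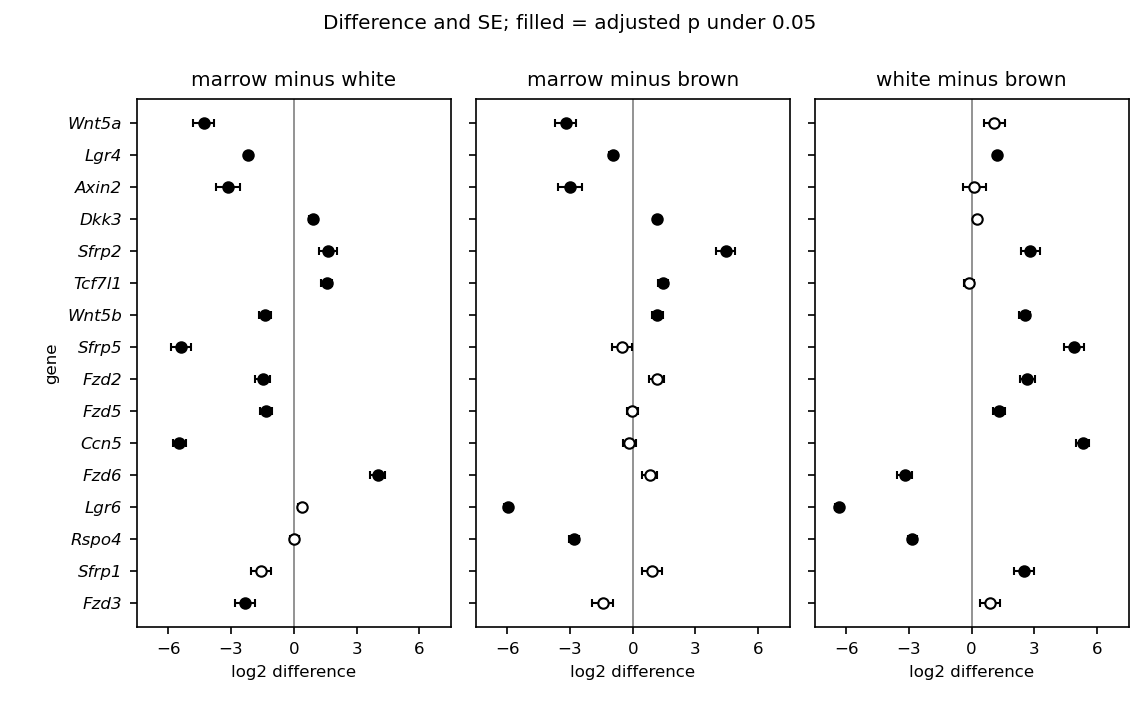
Log2 difference between group means (points) with limma's SE (bars, 2 arrays per group) for the 16 genes called in at least 1 comparison; filled points have an adjusted p under 0.05. Ccn5 and Sfrp5 lie near -5 in marrow minus white and near 5 in white minus brown, and Lgr6 lies at -5.95 and -6.32 in both comparisons with brown.

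Among the ligands, only Wnt5a and Wnt5b were called in any comparison. Wnt5a, the prototype of noncanonical Wnt ligands, measured 5.62 and 4.12 in the GFP and LacZ arrays, 9.13 and 9.22 in white and 7.87 and 8.30 in brown. Every marrow-derived value lay below every white and brown value. It was 19.7-fold lower in marrow-derived than in white adipocytes (-4.30 ± 0.50, adjusted p = 0.00634) and 9.25-fold lower than in brown (-3.21 ± 0.50, adjusted p = 0.0144). White and brown did not pass the test for this gene (1.09 ± 0.50, adjusted p = 0.249). Of the other 3 probe sets of Wnt5a, 2 were called the same way in both comparisons. The call against brown was lost without brown replicate 1 (adjusted p = 0.0789) or 2 (adjusted p = 0.112).

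Wnt5b, its close relative, measured 6.33 and 6.13 in marrow-derived, 7.27 and 7.94 in white and 4.96 and 5.17 in brown arrays. The 3 groups did not overlap and stood in the order white, marrow-derived, brown, with all 3 differences called. The second probe set of Wnt5b was called the same way for marrow minus white and white minus brown, but not for marrow minus brown. By its brightest probe set, marrow-derived adipocytes had 2.58-fold less than white (-1.37 ± 0.27, adjusted p = 0.0199) and 2.24-fold more than brown (1.17 ± 0.27, adjusted p = 0.0368). White exceeded brown 5.80-fold (2.54 ± 0.27, adjusted p = 0.0118). The call against white was lost without white replicate 2, the LacZ array or any brown array (highest adjusted p = 0.0689), and that against brown without any of the marrow-derived or brown arrays (highest adjusted p = 0.166). White minus brown was lost without either brown array (highest adjusted p = 0.116).

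The other 14 ligands were not called. Of all 16 ligands 11 stayed under 5 in every array. Wnt10b, a canonical ligand known for blocking adipogenesis, lay between 3.67 and 4.14 in all 6 arrays, and Wnt6 between 3.94 and 4.203. Wnt9a measured 7.78 and 7.62 in marrow-derived, 7.37 and 7.92 in white and 7.33 and 6.51 in brown arrays (marrow minus brown 0.78 ± 0.34, adjusted p = 0.168). Wnt11, a noncanonical ligand, measured 5.89 and 5.59, 6.11 and 6.67, and 5.89 and 5.73 in the same order (marrow minus white -0.65 ± 0.25, adjusted p = 0.117). Neither passed the test in any comparison, and Wnt8b, at 3.20 to 4.13, missed it against white (-0.73 ± 0.22, adjusted p = 0.0631). The ligands' median difference was -0.10 for marrow minus white, 0.05 for marrow minus brown and 0.10 for white minus brown.

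For marrow minus white, 2 secreted inhibitors were called higher and 1 lower; the calls of both other comparisons were all higher, 2 for marrow minus brown and 3 for white minus brown. Sfrp5, an antagonist made by fat cells and known as an adipokine, measured 5.22 and 6.60 in the marrow-derived arrays, 11.31 in each white array and 6.65 and 6.20 in brown. The white arrays stood apart, and the marrow-derived and brown arrays overlapped. White exceeded marrow-derived 42.2-fold (marrow minus white -5.40 ± 0.47, adjusted p = 0.00391) and brown 29.6-fold (4.89 ± 0.47, adjusted p = 0.00996), while marrow minus brown was -0.51 ± 0.47 (adjusted p = 0.475). White minus brown lost its call without brown replicate 1 (adjusted p = 0.105) or 2 (adjusted p = 0.0846). The second probe set of Sfrp5 was called in the same 2 comparisons, at -4.73 and 4.30.

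Sfrp2, an antagonist typical of stromal and fibroblastic cells, was highest in marrow-derived adipocytes. It measured 9.50 and 8.54 in marrow-derived, 7.79 and 6.98 in white and 4.84 and 4.31 in brown arrays, with no overlap between groups. It was 21.8-fold higher in marrow-derived than in brown adipocytes (4.44 ± 0.44, adjusted p = 0.00514), 3.11-fold higher than in white (1.64 ± 0.44, adjusted p = 0.0487) and 7.0-fold higher in white than in brown (2.81 ± 0.44, adjusted p = 0.0237). The call against white was lost when any array except the LacZ array was left out, with a highest adjusted p = 0.194 without white replicate 2. The call against brown was lost without brown replicate 2 (adjusted p = 0.0585). White minus brown was lost without white replicate 1 or either brown array (highest adjusted p = 0.145).

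Dkk3, a divergent Dickkopf family member, measured 6.35 and 6.31 in marrow-derived, 5.502 and 5.34 in white and 5.21 and 5.14 in brown arrays. It was 1.88-fold higher in marrow-derived than in white (0.91 ± 0.16, adjusted p = 0.0146) and 2.22-fold higher than in brown (1.15 ± 0.16, adjusted p = 0.0102), and both its probe sets were called in both comparisons. Those calls were lost without white replicate 2 (adjusted p = 0.0817) and without either brown array (highest adjusted p = 0.0866). Sfrp1 measured 6.29 and 6.91 in marrow-derived, 8.83 and 7.54 in white and 5.87 and 5.48 in brown arrays, and was called for white above brown (5.69-fold, 2.51 ± 0.48, adjusted p = 0.0373) but not for marrow minus white (-1.58 ± 0.48, adjusted p = 0.0655). Of its other 4 probe sets, 2 were called lower in marrow-derived than in white, at -1.10 (adjusted p = 0.0329) and -1.12 (adjusted p = 0.0448). The call of white above brown was lost without white replicate 1 or either brown array (highest adjusted p = 0.194).

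Dkk1, the classical Lrp6 antagonist, stood apart in 1 array alone, at 4.90 in the LacZ array against 2.53 to 2.68 in the other 5. Frzb showed the same array apart, at 5.14 against 3.26 to 3.81. Neither was called (marrow minus white 1.16 ± 0.72, adjusted p = 0.301, for Dkk1 and 1.09 ± 0.44, adjusted p = 0.131, for Frzb). Their second, dimmer probe sets were not called, at -0.25 for Dkk1 and 0.19 for Frzb in that comparison. Dkk2, Dkk4, Sfrp4 and Wif1 were not called either, and their values ran from 2.26 to 5.24.

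Receptors and coreceptors included members with high values in every array and members that marked a group. Lrp6, a coreceptor, measured 11.66 and 11.41 in marrow-derived, 11.41 and 11.39 in white and 11.45 and 11.27 in brown arrays. Fzd1 lay between 9.47 and 10.07 and Fzd7 between 8.94 and 9.75, and none of the 3 was called. Fzd7 came nearest, with marrow minus white at -0.60 ± 0.18 (adjusted p = 0.0583) and marrow minus brown at -0.64 ± 0.18 (adjusted p = 0.0585). Lrp5, the other coreceptor, measured 8.21 and 8.81 in marrow-derived, 7.67 and 8.06 in white and 8.34 and 8.10 in brown arrays, with no call. The differences of Lrp6 were 0.14 ± 0.17, 0.18 ± 0.17 and 0.04 ± 0.17 in the 3 comparisons.

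The probe sets of Fzd4, a Frizzled with high values in all groups, gave different calls. Its brightest probe set lay between 11.80 and 12.52, near the upper end of the scale, and was not called. In the fit of all probe sets both others were called lower in marrow-derived than in white, at -1.24 (mean 10.97, adjusted p = 0.0140) and -3.01 (mean 6.49, adjusted p = 0.00315). Both were also called higher in white than in brown, at 1.31 and 1.78, and the dimmest lower in marrow-derived than in brown, at -1.23 (adjusted p = 0.0256). The uncalled differences of the brightest probe set were -0.47 for marrow minus white, 0.42 for white minus brown and -0.05 for marrow minus brown.

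Fzd6, a Frizzled linked to planar cell polarity, measured 10.24 and 11.05 in marrow-derived, 6.98 and 6.30 in white and 9.86 and 9.79 in brown arrays. The white arrays lay lowest, and marrow-derived and brown did not pass the test (0.82 ± 0.36, adjusted p = 0.171). Marrow-derived exceeded white 16.1-fold (4.01 ± 0.36, adjusted p = 0.00395) and brown exceeded white 9.12-fold (white minus brown -3.19 ± 0.36, adjusted p = 0.0123). The second of these calls was lost without either brown array (highest adjusted p = 0.120). Another probe set of Fzd6 was called in these comparisons too, at 3.53 and -2.11, and also for marrow minus brown, at 1.42 (adjusted p = 0.0393), while the dimmest of its 3 was not called.

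Fzd2, Fzd3 and Fzd5 were lower in marrow-derived than in white adipocytes. Fzd2 measured 6.74 and 5.99 in marrow-derived, 8.22 and 7.49 in white and 5.26 and 5.15 in brown arrays, with differences of -1.49 ± 0.36 for marrow minus white (adjusted p = 0.0344) and 2.65 ± 0.36 for white minus brown (adjusted p = 0.0168). Fzd5 measured 8.02 and 8.75, 9.72 and 9.71, and 8.51 and 8.29 in the same order of groups, with -1.33 ± 0.28 (adjusted p = 0.0236) and 1.32 ± 0.28 (adjusted p = 0.0473). Fzd3 measured 5.38 and 4.45, 6.71 and 7.75, and 6.08 and 6.64, and was called for marrow minus white alone (-2.31 ± 0.48, adjusted p = 0.0242). Each of these calls was lost in some of the fits with an array left out. Without a brown array the marrow minus white differences themselves did not change. The call against white was lost for Fzd2 without any array but the GFP array (highest adjusted p = 0.114), for Fzd5 without any white or brown array (highest adjusted p = 0.0980) and for Fzd3 without white replicate 2, the LacZ array or any brown array (highest adjusted p = 0.0941). White minus brown was lost for Fzd2 without white replicate 1 or either brown array (highest adjusted p = 0.139) and for Fzd5 without any of those 4 arrays (highest adjusted p = 0.219). The other probe set of Fzd5 lay at a mean of 3.59 and was not called, and its marrow minus white difference, 0.13, had the opposite sign.

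Lgr4 and Lgr6, receptors for R-spondins, had different patterns. Lgr6 measured 3.39 and 3.46 in marrow-derived, 3.10 and 3.002 in white and 9.55 and 9.19 in brown arrays. The brown arrays stood alone, 61.7-fold above marrow-derived (marrow minus brown -5.95 ± 0.19, adjusted p = 0.000945) and further above white (white minus brown -6.32 ± 0.19, adjusted p = 0.00137). The marrow-derived and white values lie at or below the lower quartile of all probe sets on those arrays (3.41 to 3.49), and the second probe set of Lgr6 was called in both comparisons, at -5.01 in each. Lgr4 measured 8.46 and 8.28 in marrow-derived, 10.59 and 10.51 in white and 9.23 and 9.40 in brown arrays, in the order white, brown, marrow-derived with no overlap. Marrow-derived had 4.54-fold less than white (-2.18 ± 0.17, adjusted p = 0.00353) and 1.93-fold less than brown (-0.95 ± 0.17, adjusted p = 0.0194), and white had 2.35-fold more than brown (1.23 ± 0.17, adjusted p = 0.0174). The call against brown was lost without the LacZ array or either brown array (highest adjusted p = 0.131), and white minus brown without any white or brown array (highest adjusted p = 0.145). The second probe set of Lgr4 was called in no comparison, and its white minus brown difference had the opposite sign. Lgr5, known as a stem cell marker, lay between 3.20 and 4.10 in all arrays and was not called.

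Among the R-spondins, Rspo4 was higher in brown adipocytes, as was Lgr6, a receptor for R-spondins. It measured 4.27 and 4.67 in marrow-derived, 4.29 and 4.600 in white and 7.33 and 7.21 in brown arrays, and the marrow-derived and white arrays overlapped. Brown exceeded marrow-derived 6.99-fold (marrow minus brown -2.81 ± 0.22, adjusted p = 0.00329) and white 7.11-fold (white minus brown -2.83 ± 0.22, adjusted p = 0.00665). The latter call was lost without either brown array (highest adjusted p = 0.0913). Rspo1 spread widely within groups, at 6.88 and 4.41 in marrow-derived, 5.87 and 5.18 in white and 4.68 and 3.66 in brown arrays, and was not called. Rspo3 measured 3.86 and 3.34 in marrow-derived, 3.35 and 3.04 in white and 3.11 and 2.64 in brown arrays and was not called, though its difference of marrow minus white was the largest among the 4 R-spondins (0.41 ± 0.28, adjusted p = 0.344). Rspo2 lay between 3.21 and 3.83 and was not called.

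Ccn5 (also named Wisp2), a secreted protein of mesenchymal cells first described as induced by Wnt1, was high in the white arrays alone. It measured 3.40 and 3.10 in marrow-derived, 9.09 and 8.35 in white and 3.61 and 3.21 in brown arrays. White exceeded marrow-derived 44.4-fold (marrow minus white -5.47 ± 0.31, adjusted p = 0.00352) and brown 39.7-fold (5.31 ± 0.31, adjusted p = 0.00472), and the marrow-derived and brown arrays overlapped. Both marrow-derived values and that of brown replicate 2 lie below those arrays' lower quartiles of all probe sets (3.41 to 3.56), so the folds are those of the deposited values and may understate the true ones. White minus brown lost its call without brown replicate 1 (adjusted p = 0.0703) or 2 (adjusted p = 0.0642). Its relatives were not called: Ccn6 measured 2.92 and 2.93 in marrow-derived, 3.50 and 2.65 in white and 3.42 and 3.18 in brown arrays, and Ccn4 lay between 2.67 and 3.59.

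Of the intracellular genes, Axin2 was lower and Tcf7l1 higher in marrow-derived adipocytes than in both other groups. Axin2 measured 7.30 and 6.10 in marrow-derived, 9.16 and 10.49 in white and 9.58 and 9.80 in brown arrays. Marrow-derived had 8.73-fold less than white (-3.13 ± 0.57, adjusted p = 0.0171) and 7.96-fold less than brown (-2.99 ± 0.57, adjusted p = 0.0237), while white and brown overlapped (0.13 ± 0.57, adjusted p = 0.912). The call against white was lost without white replicate 2 (adjusted p = 0.0617) or either brown array (adjusted p = 0.0520 each), and that against brown without the LacZ array (adjusted p = 0.0575) or either brown array (highest adjusted p = 0.151). The second, dimmer probe set of Axin2 was not called, with differences of -1.42 and -1.03 in these comparisons.

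Tcf7l1, a TCF factor known mostly as a repressor of Wnt targets, measured 9.70 and 9.80 in marrow-derived, 8.07 and 8.28 in white and 8.62 and 8.0005 in brown arrays. It was 2.98-fold higher than in white (1.57 ± 0.25, adjusted p = 0.0117) and 2.72-fold higher than in brown (1.44 ± 0.25, adjusted p = 0.0186), and both its probe sets were called in both comparisons. The calls were lost without white replicate 2 (adjusted p = 0.0502) and, against brown, without the LacZ array (adjusted p = 0.0526) or brown replicate 2 (adjusted p = 0.0898). Ctnnb1, beta-catenin itself, measured 12.88 and 12.997 in marrow-derived, 12.56 and 12.60 in white and 12.90 and 12.81 in brown arrays, near the upper end of the scale, with no call (marrow minus white 0.36 ± 0.15, adjusted p = 0.153). In the fit of all probe sets a second one of Ctnnb1 (mean 10.99) was called higher in marrow-derived than in white, at 1.18 (adjusted p = 0.0325), and the third was not called, at 0.86. Tcf7l2, the main TCF factor of many adult tissues, measured 10.36 and 10.70 in marrow-derived, 10.38 and 10.46 in white and 9.80 and 9.91 in brown arrays. Its difference from brown was 0.68 ± 0.19 (adjusted p = 0.0589), but 1.44 with an adjusted p = 0.0094 when its 4 probe sets were averaged, and the other 3 were each called higher in marrow-derived than in brown, at 1.52 to 1.79. Lef1 measured 6.25 and 5.58 in marrow-derived, 5.85 and 5.73 in white and 6.72 and 6.68 in brown arrays, with white minus brown at -0.91 ± 0.25 (adjusted p = 0.0943); without either marrow-derived array this passed (adjusted p = 0.0325).

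**Figure D3:**
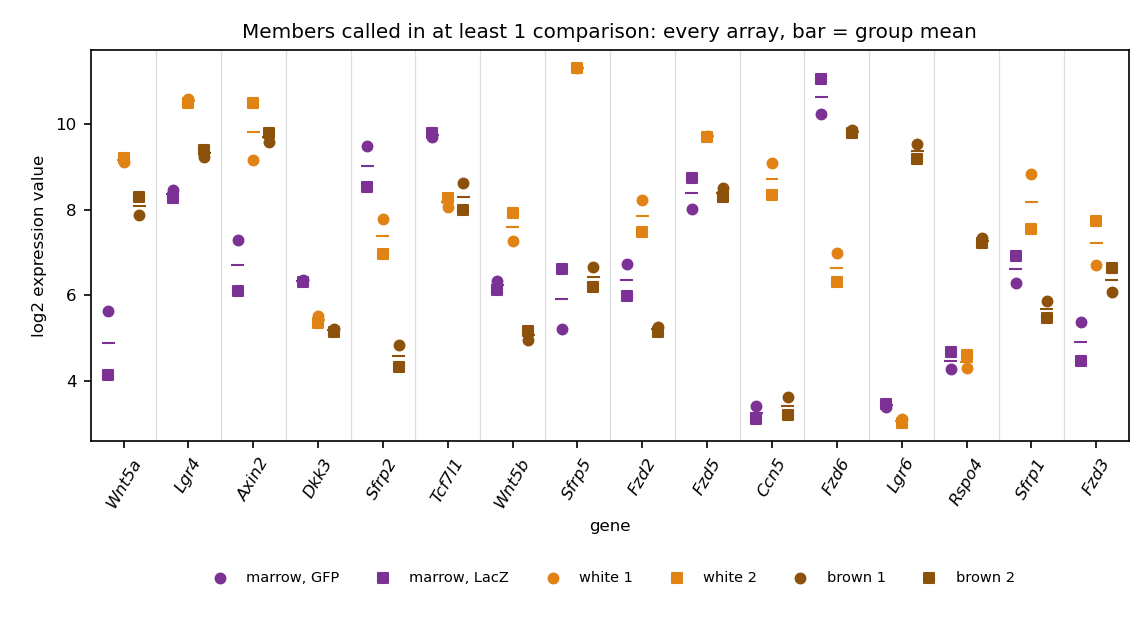
Deposited log2 value (vertical axis) of the 16 called genes in each array; circles are replicate 1, squares replicate 2 and bars group means. Purple marrow-derived points lie lowest for Wnt5a, Lgr4 and Axin2 and highest for Dkk3, Sfrp2 and Tcf7l1, and the 2 marrow-derived arrays lie 1.5 apart for Wnt5a and 1.20 apart for Axin2.

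A wider list of 64 other pathway genes, from ligand release to planar polarity, had 63 measured members. For marrow minus white 13 were called higher and 7 lower, for marrow minus brown 6 and 4, and for white minus brown 2 and 3. The shares called either way were 31.7%, 15.9% and 7.94%, against 25.8%, 20.4% and 9.21% of all genes in the same order, and the list's medians were 0.14, 0.14 and 0.01. The planar polarity group, which organises cells in a sheet, had 4 of 9 members called higher and 2 lower for marrow minus white, and between 3 and 4 higher and 1 and 2 lower with any array left out. Daam2, a formin-like effector of Dishevelled, was 12.8-fold higher in marrow-derived than in white (3.68 ± 0.36, adjusted p = 0.00447) and 5.21-fold higher than in brown (2.38 ± 0.36, adjusted p = 0.0132). Prickle2 and Vangl2, core polarity proteins, exceeded white by 2.62 ± 0.31 and 2.31 ± 0.39, and Prickle1 and Prickle2 were lower in white than in brown (-1.54 ± 0.29 and -2.11 ± 0.31). The polarity cadherin Celsr2 was 10.4-fold lower in marrow-derived than in white and brown alike (-3.38 ± 0.41 in each), and Celsr3 differed from white by -1.52 ± 0.41 (adjusted p = 0.0490).

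Apcdd1, a membrane-bound Wnt inhibitor, was 7.03-fold lower in marrow-derived than in white adipocytes (-2.81 ± 0.59, adjusted p = 0.0249). Nkd1, a Dishevelled-binding feedback inhibitor, measured 5.98 and 6.40 in marrow-derived, 7.55 and 7.59 in white and 5.63 and 5.66 in brown arrays, and white exceeded brown by 1.93 ± 0.20 (adjusted p = 0.0108). Wls, the carrier that brings Wnt ligands to the cell surface, was also higher in white than in brown (1.27 ± 0.19, adjusted p = 0.0219). Marrow minus white was -1.39 ± 0.20 for Nkd1 (adjusted p = 0.00909) and -0.92 ± 0.19 for Wls (adjusted p = 0.0248). Against brown, marrow-derived adipocytes had higher Ror1, a receptor for Wnt5a (2.53 ± 0.56), and higher Dact1, a Dishevelled partner (2.07 ± 0.40). They had lower Frat1, a GSK3-binding protein (-1.90 ± 0.28), and lower Pygo1, a nuclear beta-catenin partner (-1.40 ± 0.26). Frat1 was also lower in white than in brown (-2.08 ± 0.28). Against white, marrow-derived adipocytes likewise had higher Dact1 (1.94 ± 0.40, adjusted p = 0.0239) and lower Pygo1 (-1.33 ± 0.26, adjusted p = 0.0208). Of these named calls, only those of Daam2, Prickle2 and Celsr2 for marrow minus white held with each of the 6 arrays left out in turn. The marrow minus white differences of Dact1, Pygo1, Nkd1 and Wls were not part of that check. The call of Vangl2 was lost without white replicate 2 (adjusted p = 0.0692), that of Apcdd1 without any white or brown array (highest adjusted p = 0.107) and that of Celsr3 without any array but the LacZ array (highest adjusted p = 0.197). All named calls against brown were lost without either brown array. Against brown, Dact1 (adjusted p = 0.0620) and Ror1 (adjusted p = 0.0544) were also lost without the LacZ array, and Pygo1 without either (highest adjusted p = 0.0597). For white minus brown, Frat1, Prickle1, Prickle2 and Wls were also lost without either white array. With an array left out the list's counts for marrow minus white ran from 5 to 14 higher and from 1 to 6 lower, both lowest without white replicate 2, and all its calls in the comparisons with brown were lost without either brown array.

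Markers of other cell types moved between the groups as well. None of the 6 measured adipocyte markers fell below the lower quartile of all probe sets in any group, and their list means were of 11.54 to 12.22 in marrow-derived, 12.81 to 12.99 in white and 12.49 to 12.68 in brown arrays, with 2 called lower in marrow-derived than in white and 1 lower than in brown. The 12 endothelial markers had list means of 11.41 to 11.96 in marrow-derived, 7.36 to 8.39 in white and 10.38 to 10.88 in brown arrays. All 12 were called higher in marrow-derived than in white, 2 higher in marrow-derived than in brown and 10 lower in white than in brown, and in no group did any of them fall below the lower quartile of all probe sets in both arrays. The count of 12 held with each array left out, while the calls against brown were lost without either brown array, those for marrow minus brown also without the LacZ array, and 5 were called for white minus brown without white replicate 2. Fzd6, Daam2, Prickle2 and Vangl2 had the same order of group means, and the part of endothelial cells in their differences was not tested.

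The 9 measured fibroblast and preadipocyte markers had list means of 10.55 to 10.59 in marrow-derived, 8.31 to 9.50 in white and 7.76 to 8.44 in brown arrays, with 4 called higher in marrow-derived than in white and 4 higher than in brown. Sfrp2 and Dkk3 had the same order of group means as the list, though not every marker did. For white minus brown 3 of the 9 were called higher and 1, Postn, lower. The means of Pdgfrb and Cd34 were also lower in white than in brown, without a call. The 8 smooth muscle and pericyte markers had list means of 9.45 to 10.11 in marrow-derived, 8.53 to 8.60 in white and 8.43 to 8.55 in brown arrays. Of these, 4 were called higher in marrow-derived than in white and 3 higher than in brown, with Cnn1 below the lower quartile in every group. The 3 calls against brown fell to 1 without brown replicate 1 and were all lost without brown replicate 2. Without either brown array 1 fibroblast marker was called for marrow minus brown, and without a white array 9 were. The 8 mesothelial markers had means of 7.89 in the GFP array, 6.07 in the LacZ array, 7.18 to 7.23 in white and 3.94 to 4.19 in brown arrays. For white minus brown 4 of them were called higher, in the comparison where Ccn5 and Sfrp5 were higher too, and for marrow minus brown 5; these were lost without either brown array, and those of white minus brown also without white replicate 1. None of these 8 markers was called for marrow minus white, where the 2 marrow-derived arrays disagreed. Their GFP mean (7.89) lay above both white means and their LacZ mean (6.07) below both, so the missing call does not show equal levels. Ccn5 and Sfrp5 were lower in both marrow-derived arrays than in either white array. Krt19 lay below the lower quartile in brown. Rspo1 was likewise higher in the GFP than in the LacZ array. The part of these cells in any of the differences was not tested.

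None of the 8 macrophage markers was called by limma in any comparison (0, 0 and 2 at an unadjusted p under 0.05), and their means were 11.21 in the GFP array, 8.77 in the LacZ array, 9.85 to 11.32 in white and 8.29 to 8.95 in brown arrays. The 8 brown adipocyte markers were all called lower in marrow-derived than in brown adipocytes and 4 of them lower in white than in brown, and Lgr6 and Rspo4 stood highest in brown as they did; their part was not tested. Their means were 3.76 to 5.69 in marrow-derived, 5.70 to 6.30 in white and 10.79 to 10.95 in brown arrays, and Elovl3 and Zic1 lay below the lower quartile in both gonadal groups. Without either brown array 3 of the 8 were called for marrow minus brown. T cell markers, listed because T cells are known for Lef1, had list means of 4.87 to 5.81 over all arrays, with 1 of 7 called, for marrow minus white, and Cd3g below the lower quartile in brown.

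**Figure D4:**
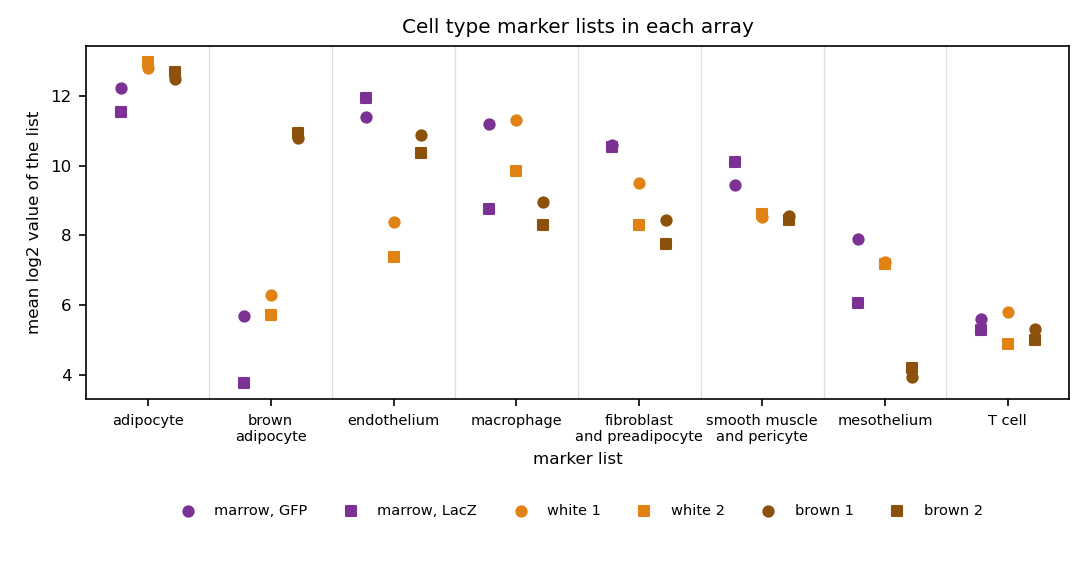
Mean log2 value of each cell type marker list (vertical axis) in each of the 6 arrays; circles are replicate 1 and squares replicate 2. The endothelial mean is lowest in the white arrays (7.36 and 8.39), and the macrophage and mesothelial means differ between the GFP and LacZ arrays.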

How the data were processed

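Gene expression was measured on 1 oligonucleotide array per sample, with 2 arrays in each of 3 groups taken from the labels' titles. Values were deposited on a log2 scale, 1 per probe set and array. The submitters' processing notes name RMA and Partek, without version, role or order, and the log base was taken from the values (1.67 to 14.0). RMA gives no detection calls. Of 43057 probe sets, 33565 had 1 gene symbol, 857 had several and named no gene, and 8635 were unnamed here. All 53 members matched RefSeq by gene ID. Each gene was read from its brightest probe set (highest 6-array mean), without a filter on low values.

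Group means were fitted for all 17720 genes with limma 3.58.1 in R 4.3.3 and moderated by empirical Bayes (degrees of freedom: 3 residual, 2.35 prior). P-values are two-sided and were adjusted by Benjamini-Hochberg over all genes of a comparison, with a threshold of 0.05. Precision is limited by there being 2 arrays per group. The fit was tested on simulated data.

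The members and lists were chosen with earlier results of these data known. Values in every array are given for called members (up to 8 in each direction and comparison by size), the member of each role with the largest difference, and Ctnnb1, Lrp5, Lrp6, Axin2, Tcf7l2 and Sfrp5; further pathway genes are named up to 3 per direction and comparison. Fzd5 (for marrow minus white), Wnt9a, Wnt11 and Rspo1, and other members named by range, stand outside that rule. So do the marrow minus white differences of Dact1, Pygo1, Nkd1 and Wls. Alternatives left out each array, added the replicate number as a block, centred arrays, averaged probe sets, dropped genes with a mean under 5, used 2 groups only, or changed the variance model. Listed genes with no probe set of their own in the table used were left out.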

Additional observations from a re-analysis of the deposited data

How the results depend on the processing

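All 33 calls of members kept their direction under each of the 13 alternatives in which the gene was fitted, and between 6 and 33 of them stayed past the threshold. With an array left out the counts ran from 1 to 6 higher and 4 to 9 lower for marrow minus white, 0 to 5 and 2 to 6 for marrow minus brown, and 0 to 9 and 1 to 4 for white minus brown. Where that left a group with 1 array, it was assumed to vary like the others. An ordinary linear model without moderation called 1 higher and 2 lower for marrow minus white (all genes 254 and 301), 1 and 2 for marrow minus brown (296 and 665), and 0 and 0 for white minus brown, where it called 0 of all genes and 11 and 5 members had an unadjusted p under 0.05. A fit of the 2 groups only called 4 lower for marrow minus white (1372 of all genes). The replicate numbers pair no arrays by design, and replicate 1 deviations correlated at 0.205 (marrow and white), -0.00376 (marrow and brown) and 0.277 (white and brown) across genes. With the replicate block the counts were 4 and 9, 4 and 5, and 6 and 3, where all genes gave 1879 and 2149, 1279 and 1787, and 624 and 640. Among the differences recomputed under all alternatives (called members, those of largest difference in their role and 6 fixed genes), 6 that were not called changed sign; other members were not counted. With an array left out 5 of these ran from -0.0567 to 0.29 for Tcf7l2 (marrow minus white), from -0.0135 to 0.58 for Lrp5 and from -1.21 to 0.18 for Sfrp5 (marrow minus brown), and from -0.53 to 0.80 for Axin2 and from -0.0488 to 0.13 for Lrp6 (white minus brown). After centring, Ctnnb1 was -0.00539 (marrow minus brown) and Lrp6 -0.0149 (white minus brown). Centring moved the median of all genes by -0.04, -0.09 and -0.06 in the 3 comparisons. Leaving out genes with a mean under 5 removed 12 of the 16 ligands and put the ligands' medians at -1.01, 0.36 and 0.91. The cause was not tested for any of the other shifts. Where values lie near the lower end of the arrays, the signal over background limits what can be detected.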

Other observations

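The GFP and LacZ arrays of the marrow-derived group differed by over 1 on the log2 scale for 8 of the 53 genes, or 15.1%, against 10.9% of all genes. The gaps were 2.46 for Rspo1 (GFP higher), 2.28 for Dkk1 (LacZ higher), 1.65 for Fzd8 (LacZ higher, 8.84 against 6.56 to 7.69 in the other 5 arrays), 1.5 for Wnt5a, 1.38 for Sfrp5, 1.33 for Frzb, 1.20 for Axin2 and 1.02 for Wnt2b. Wnt5a, Axin2 and Wnt2b were higher in the GFP array, and Sfrp5 and Frzb in the LacZ array. The white arrays differed by over 1 for 4 genes (Wif1, Axin2, Sfrp1 and Fzd3) and the brown arrays for 1 (Rspo1). The median gap over the 53 genes was 0.34 in the marrow-derived, 0.25 in the white and 0.23 in the brown pair, against 0.28, 0.23 and 0.21 over all genes.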
